A study of Rattus norvegicus with 6 samples.

Results

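The comparison set the kidney of rats fed an iron-free diet against the kidney of rats fed the same diet with iron, which used 2 of the 6 arrays of the study. Wistar rats were kept for 4 weeks on the purified AIN-93G diet, either complete or lacking iron. The growth notes call the animals mice, while the organism and strain labels give rat. Kidney RNA of the 6 animals of a group was mixed and hybridised to 1 one-colour Agilent array, so each diet is a single pooled measurement with no spread between animals, and no test of the diet was possible. The other 4 arrays held liver of the same diets and FAO cells, a rat liver cell line, untreated or given 100 µM of the iron chelator deferoxamine (DFO) for 24 h, each FAO array pooling 3 cultures. Age and sex are not given in the sources used here, and the labels name no difference between the 2 kidney groups other than iron in the diet.

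Cells take up iron mainly as transferrin, through the transferrin receptor, and store it in ferritin. When cell iron is low, the iron regulatory proteins bind transferrin receptor mRNA and stabilise it, and bind ferritin mRNA and block its translation, so that receptor mRNA responds and ferritin mRNA need not. The kidney filters and reabsorbs iron in its proximal tubule and makes erythropoietin, the hormone of red cell production, in interstitial fibroblasts. The hydroxylases that mark hypoxia-inducible factor (HIF) for degradation need iron and oxygen, and so do the hydroxylases that modify collagen.

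Members of the comparison were the 12674 of 30367 gene probes that the scanner software marked as well above background on at least 1 kidney array. Of these, 11076 were detected on both arrays, 1226 on the iron-free array alone and 372 on the iron-sufficient array alone. They represented 9122 genes, with 1 probe standing for each. A value below is the scaled signal, the processed spot intensity of each array divided by its 75th percentile over probes detected on all 6 arrays and put back on the mean scale of the 2 kidney arrays. A difference is log2 iron-free minus log2 iron-sufficient signal, followed by a standard error (SE) drawn from how far the spots of a probe scatter, which covers spot noise only. Where 1 array was not well above background the difference is a bound, written as at least N-fold against the higher of the dim probe's own signal and the lowest detected signal of that array, 76.9 for iron-sufficient and 67.7 for iron-free kidney. A gene was called when the difference or bound was at least 2-fold.

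The arrays carried kidney RNA by their markers. Of 33 proximal tubule markers 31 were detected, with a summed signal of 769653 on the iron-sufficient and 691462 on the iron-free array, and uromodulin (Umod), the main product of the thick ascending limb, read 146530 and 120671. Of 15 hepatocyte markers 4 were detected on both arrays (Ahsg, Apoc3, F2 and Cyp2c11) and 11, albumin (Alb) among them, were not well above background on either. Neither were the steroid enzymes Cyp11a1 and Cyp11b2 of the adrenal gland, although Cyp21a1 (116 and 103) and Th (134 and 140) were faintly detected. The iron-sufficient array had 14 of 264 blocks with noisy spots, against 1 on the iron-free array, and no gene spot was saturated on either.

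Most genes differed little between the diets. Of the 9122 genes, 284 (3.11%) were called higher and 118 (1.29%) lower on the iron-free diet. For 87.9% the difference or bound was below 1.5-fold. A bound is a minimum, so for the 1028 genes read as a bound a small value does not show a small difference. List medians below count bounds at their bound. A large share of the calls rests on thin measurements: 333 of the 402 called genes lacked agreeing spots, 225 were read from 1 spot per array and 241 were bounds. Spots agreed when a probe had 2 or more of them with a log2 SD of at most 0.35 on an array and, for a bound, no detected spot on the dim array. Among the 5626 genes with agreeing spots, 154 of them bounds, 56 (0.995%) were called higher and 13 (0.231%) lower. For 94.0% the difference or bound was below 1.5-fold. The requirement on the dim array was added after the values were seen, and without it 93 genes were higher and 15 lower of 6013. The genes described below have agreeing spots unless stated. Scaling to the median of detected probes in place of the 75th percentile moved all differences up by 0.20 and gave 408 higher and 84 lower calls over all genes. Of the 56 higher and 13 lower genes with agreeing spots, 31 and 3 were called under every processing alternative that gave a value.

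**Figure D1:**
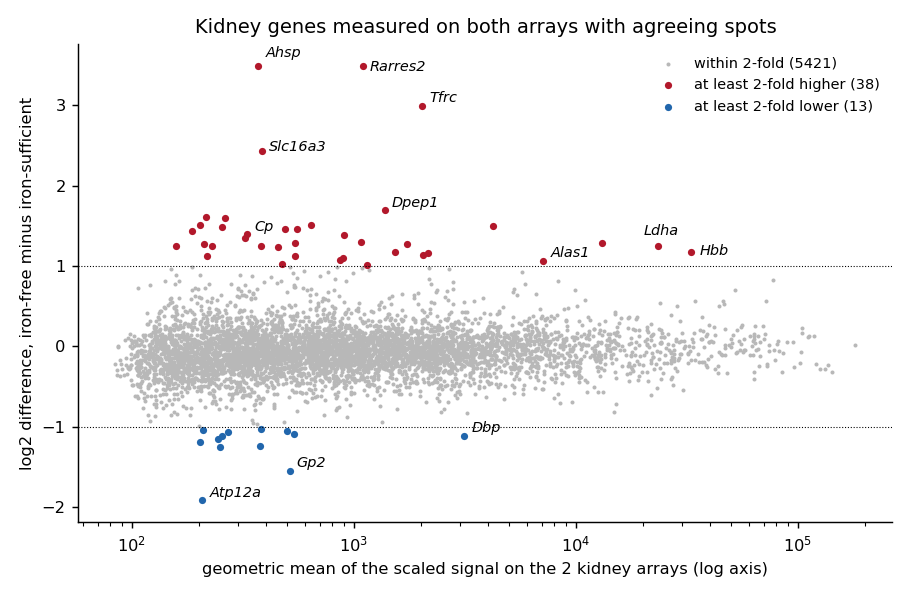
Log2 difference between iron-free and iron-sufficient kidney (y axis) against the geometric mean of the scaled signal of the 2 arrays (x axis, log scale) for the 5472 genes measured on both arrays with agreeing spots. Red points are the 38 genes at least 2-fold higher and blue points the 13 at least 2-fold lower on the iron-free diet. The dotted lines mark 2-fold, and most genes form a narrow band around 0 with Ahsp, Rarres2, Tfrc and Slc16a3 far above it.

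All 38 higher and 13 lower measured genes had repeated spots that did not overlap between the arrays. For a probe with 2 spots the limit on spot SD and the 2-fold call leave no room for overlap, so this adds nothing to the call. It also does not set them apart, since 1009 of the 5472 genes had every iron-free spot above every iron-sufficient spot and 1929 had every one below. Just inside the 2-fold line lay Narf at 1.01, Plod1 at 1.02 and Ephx2 at -1.03. Just outside it lay Dcn and Steap4, both at 0.99, the placental growth factor Pgf at 0.99 and Rbm3 at -0.99.

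Among iron genes, the transferrin receptor Tfrc was the most different. Its standing probe had spots of 701 and 735 on the iron-sufficient and of 5376 and 6089 on the iron-free array, which is 7.97-fold higher (log2 difference 2.99 ± 0.20). The groups of spots lay far apart. A dimmer Tfrc probe went the same way, from 21.7, not well above background, to 144, a bound of at least 1.87-fold. Both probes name the same transcript, and the bound on the dim probe does not set the size of its difference. The divalent metal transporter Slc11a2, which carries iron across membranes, was not called: its brightest probe read 2072 and 3339 (0.69 ± 0.18), and the other 2 probes gave differences of 0.32 and 0.01. Steap4, a ferrireductase, read 364 and 725 (0.99 ± 0.22). Megalin (Lrp2) and cubilin (Cubn), the tubular receptors that reabsorb filtered protein including transferrin, read 16628 and 21360 and 5057 and 5415. Their differences were 0.36 ± 0.20 and 0.10 ± 0.27. Over the list for transferrin uptake and iron import, 16 of 24 genes were detected, with a median of -0.00. Of the 16, 2 were higher and none was lower, against 3.11% and 1.29% of all genes. The other higher gene was Steap1, read from 1 spot per array, 209 and 506, of which the iron-sufficient spot lay in a noisy block.

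Iron storage transcripts were close to equal. Ferritin heavy chain Fth1 read 113439 and 124010 (0.13 ± 0.20) on 1 probe and differed by -0.12 ± 0.29 on another, and the light chain Ftl1 read 158646 and 127118 (-0.32 ± 0.20). The iron regulatory protein Aco1 read 6657 and 6517 (-0.03 ± 0.10). Fbxl5, the iron-sensing ubiquitin ligase subunit that degrades iron regulatory protein 2, read 489 and 253, a difference of -0.95 ± 0.31 that stayed within 2-fold. The iron exporter ferroportin (Slc40a1) read 459 and 757 (0.72 ± 0.26), and its second probe gave 0.26 ± 0.26. Ceruloplasmin (Cp), the copper ferroxidase that works with ferroportin, was called: 203 and 534 (1.40 ± 0.31), with 464 and 1011 (1.12 ± 0.36) on a further detected probe. Regucalcin (Rgn), a calcium-binding protein, read 3955 and 5548 (0.49 ± 0.12). Of the 21 genes for storage, export and sensing 14 were detected, with a median of 0.15. Of the 14, 1 was higher and none lower, against 3.11% and 1.29% of all genes. Hepcidin (Hamp), Tfr2, Ireb2 and lipocalin 2 (Lcn2) were not well above background on either array, nor was erythropoietin (Epo), at 23.2 and 40.3.

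**Figure D2:**
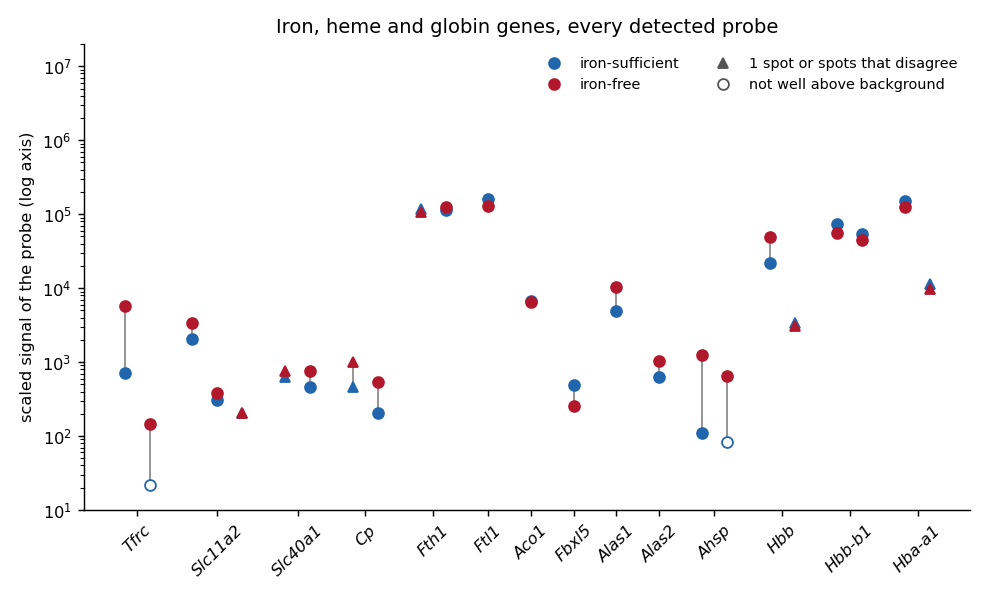
Scaled signal (y axis, log scale) of every detected probe of 14 iron, heme and globin genes on the iron-sufficient (blue) and iron-free (red) kidney arrays, joined by a line per probe. Triangles are probes with 1 spot or disagreeing spots and open symbols are values not well above background. Both Tfrc probes and both Ahsp probes are higher on the iron-free diet, the ferritin probes nearly coincide, and the 2 Hbb probes disagree.

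In heme synthesis only the housekeeping entry enzyme Alas1 was called. Its spots read 4805 and 5064 on the iron-sufficient and 9905 and 10715 on the iron-free array (1.06 ± 0.27). The call was lost, at 0.97, with normexp background correction. The erythroid form Alas2 read 637 and 1038 (0.70 ± 0.26). Ferrochelatase (Fech), which inserts iron into heme and carries an iron-sulfur cluster, read 135 and 138 (0.03 ± 0.53). Heme oxygenase Hmox1 was not well above background. Over the list 18 of 26 genes on the array were detected, with a median of 0.03. Of the 18, 1 was higher and none lower, against 3.11% and 1.29% of all genes.

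Of 13 detected genes of the red cell lineage 2 were higher and none lower, with a median of 0.25, and of the 10 with agreeing spots the same 2, Ahsp and Hbb, were higher, against 0.995% of all such genes, with a median of 0.13. Ahsp, the chaperone of free alpha globin, read 110 and 1241 (3.49 ± 0.55), with spots of 103 and 118 against 1195 and 1289, and its second probe gave at least 7.73-fold. Beta globin Hbb read 21878 and 49537 (1.18 ± 0.20) on 1 probe and 3412 and 3115 (-0.13 ± 0.25) on another. Hbb-b1 and the alpha globin Hba-a1 read 72706 and 55095 (-0.40 ± 0.20) and 148715 and 126821 (-0.23 ± 0.20). Globin genes are near-identical copies, so probes may not separate them. The band 3 anion exchanger Slc4a1, which intercalated cells of the collecting duct also make, read 1164 and 1386 (0.25 ± 0.18). The summed signal of the detected genes, most of it Hba-a1, was 254592 and 249268, while Gata1, Klf1, Epb42 and Hemgn were not well above background. Whether red cells left in the tissue contributed to Ahsp was not tested. In such tissue RNA, a change in the number of cells of a type and a change in RNA per cell cannot be told apart.

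HIF targets and glycolytic genes included some of the clearest differences, though most members stayed within 2-fold. The lactate and proton exporter Slc16a3 (MCT4) read 142 and 193 in its iron-sufficient spots and 888 and 898 in its iron-free spots (2.43 ± 0.40). Lactate dehydrogenase A (Ldha) was bright on both arrays, with 13874 and 16586 against 34212 and 38323 (1.26 ± 0.20). The liver-type phosphofructokinase Pfkl, a rate-setting enzyme of glycolysis, read 295 and 696 (1.24 ± 0.25), with 1.32 on its second probe. P4ha1, the catalytic subunit of collagen prolyl 4-hydroxylase and a HIF target, read 123 and 378 (1.61 ± 0.43). The spots of the arrays did not overlap in these genes, which the rules for agreement and calling fix for probes with 2 spots. Of 19 HIF targets with agreeing spots 3 were higher and none lower, against 0.995% and 0.231% of all such genes, and 16 were above 0, with a median of 0.46 beside -0.06 over all genes with agreeing spots. Bnip3, Pgk1 and the glucose transporter Slc2a1 lay between 0.48 and 0.50, Vegfa was at 0.21 ± 0.25, and Ndrg1 was at -0.36 ± 0.20. Angptl4, a lipoprotein lipase inhibitor that both HIF and peroxisome proliferator-activated receptors induce, read 1291 and 408 (-1.66 ± 0.24) without agreeing spots.

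Of 16 glycolytic genes with agreeing spots 2 were higher and none lower, against 0.995% and 0.231% of all such genes. In the list 12 of the 16 were above 0 and the median was 0.26, beside -0.06 over all genes with agreeing spots. Phosphoglycerate mutase Pgam1 read 28225 and 41836 (0.57 ± 0.20) and triose phosphate isomerase Tpi1 read 19932 and 28925 (0.54 ± 0.20). Ldhb and aldolase B, the forms abundant in kidney, differed by -0.13 ± 0.20 and -0.04 ± 0.20. Over the alternatives the list medians over all detected members ran from 0.24 to 0.65 for HIF targets and from 0.26 to 0.59 for glycolysis. These lists, like others here, share genes, so the same gene can count in several.

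The 250 bases upstream of the annotated starts of the 4 called HIF and glycolysis genes and of Tfrc are shown because these genes were higher together and HIF binds the core letters ACGTG or GCGTG. The sequences are from RefSeq for build GRCr8, 5′ to 3′ on the gene's strand, with a match to ACGTG or GCGTG on either strand in capitals.
Ldha, chr1:106507842-106508091, forward strand: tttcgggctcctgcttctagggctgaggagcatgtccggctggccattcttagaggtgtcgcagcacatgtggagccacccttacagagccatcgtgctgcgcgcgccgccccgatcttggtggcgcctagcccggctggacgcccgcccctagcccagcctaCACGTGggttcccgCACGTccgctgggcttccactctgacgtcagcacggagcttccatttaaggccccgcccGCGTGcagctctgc
P4ha1, chr20:27844796-27845045, forward strand: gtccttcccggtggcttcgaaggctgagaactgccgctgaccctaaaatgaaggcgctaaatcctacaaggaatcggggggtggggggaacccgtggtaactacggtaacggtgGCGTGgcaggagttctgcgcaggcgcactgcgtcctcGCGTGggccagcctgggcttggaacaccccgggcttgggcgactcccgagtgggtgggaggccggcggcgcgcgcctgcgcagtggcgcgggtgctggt
Pfkl, chr20:10663715-10663964, forward strand: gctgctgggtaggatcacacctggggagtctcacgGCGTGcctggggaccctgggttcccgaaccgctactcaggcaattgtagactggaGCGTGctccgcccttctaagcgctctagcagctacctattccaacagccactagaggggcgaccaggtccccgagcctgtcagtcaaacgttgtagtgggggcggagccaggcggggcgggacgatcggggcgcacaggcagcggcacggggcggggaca
Slc16a3, chr10:106712078-106712327, forward strand: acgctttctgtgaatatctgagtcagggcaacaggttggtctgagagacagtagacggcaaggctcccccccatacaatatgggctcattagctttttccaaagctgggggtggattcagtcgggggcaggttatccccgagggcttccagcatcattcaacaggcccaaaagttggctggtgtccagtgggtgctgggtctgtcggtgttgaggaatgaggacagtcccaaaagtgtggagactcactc
Tfrc, chr11:81690319-81690568, reverse strand: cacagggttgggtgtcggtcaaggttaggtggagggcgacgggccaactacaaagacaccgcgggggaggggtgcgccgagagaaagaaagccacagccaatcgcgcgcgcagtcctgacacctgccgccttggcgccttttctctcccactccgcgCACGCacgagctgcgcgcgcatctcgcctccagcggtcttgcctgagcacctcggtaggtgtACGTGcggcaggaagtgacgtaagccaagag
Ldha held 4 matches, P4ha1, Pfkl and Tfrc 2 each and Slc16a3 none. Such letters are common: 37.9% of all 27457 promoters of this length held at least 1 match, as did 56.9% of the 4585 promoters of kidney genes with agreeing spots. Of the higher genes, 38 had a promoter there and 19 of these held a match, a smaller share than among the kidney genes around them. The 5 promoters were chosen with the calls known.

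Collagen and matrix genes made the largest group of higher genes. Of the 32 with agreeing spots 10 were higher and none lower, against backgrounds of 0.995% and 0.231%, 31 were above 0 and the median was 0.52. Over all 40 detected members 14 were higher and none lower, with a median of 0.60 that ran from 0.40 to 0.81 over the alternatives. The lysyl oxidase Loxl2, a collagen crosslinking enzyme, read 110, not well above background, and 449, at least 4.09-fold. Col6a2, a chain of the beaded filament collagen VI, had spots of 283 and 310 against 778 and 852 (1.46 ± 0.22). Fibronectin (Fn1) and fibrillin (Fbn1) were also called, at 1.42 ± 0.22 and at least 5.85-fold, but their spots did not agree.

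The fibrillar collagens are named after their values were seen. Col1a2 read 1115 and 2695 (1.27 ± 0.18), Col3a1 687 and 1697 (1.30 ± 0.25), Col1a1 247 and 588 (1.25 ± 0.31) and Col5a2 135 and 329 (1.28 ± 0.43). Col1a1 and Col5a2 were no longer called with normexp, at 0.98 and 0.86, or on their brightest probe, at 0.83 and 0.70. Plod1, a collagen lysyl hydroxylase, was at 1.02 ± 0.25 and, with normexp, at 0.80. Decorin (Dcn) and biglycan (Bgn), small proteoglycans, read 598 and 1189 (0.99 ± 0.11) and 5245 and 8267 (0.66 ± 0.20). The lowest of the 32 differences was -0.02, for the basement membrane collagen Col4a5. Markers of fibroblasts, pericytes and smooth muscle were 0 of 12 called, against 3.11% higher and 1.29% lower of all genes. The 12 had a median of 0.29 and a summed signal of 4617 and 6751. Pdgfrb, a receptor of pericytes and fibroblasts, read 298 and 519 (0.80 ± 0.25), vimentin (Vim) 311 and 272 (-0.19 ± 0.13), and Dpt, Gli1 and Cnn1 were not well above background. The part of stromal cell number in the matrix values was not tested. Cd248, a surface protein of pericytes and fibroblasts that was not on the marker list, read 333 and 916 (1.46 ± 0.22).

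**Figure D3:**
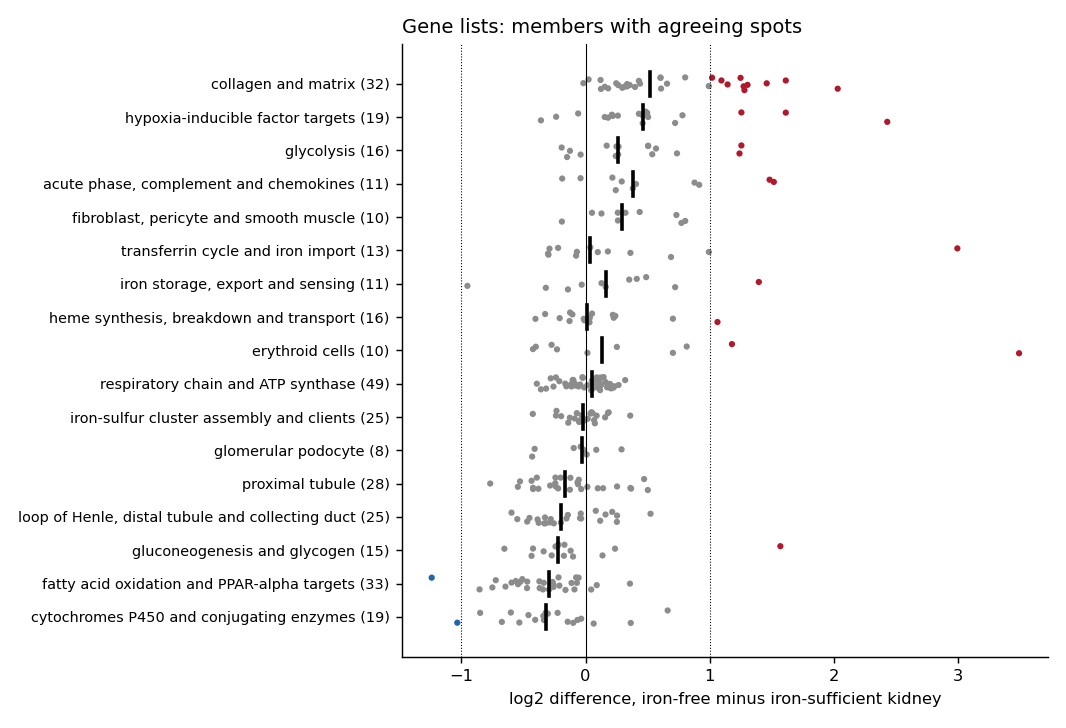
Log2 difference between iron-free and iron-sufficient kidney (x axis) for the members with agreeing spots of 17 gene lists, 1 point per gene and a black bar at the list median, with the number of members in brackets. Red and blue points are at least 2-fold higher or lower. Collagen and matrix holds 10 higher genes, while the tubule lists hold none in either direction and fatty acid oxidation lies mostly below 0.

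A few complement and adhesion genes were also higher. The complement proteases C1r, with spots from 340 to 403 (median 386) against 1001 to 1183 (median 1084), and C1s, at 152 and 425, differed by 1.52 ± 0.11 and 1.48 ± 0.43. Of the 11 acute phase, complement and chemokine genes with agreeing spots these were the 2 higher and none was lower, against 0.995% and 0.231% of all such genes. Cfb, Cebpd and C4a gave 0.88, 0.92 and 0.38. The adhesion molecule Vcam1, read by spots from 288 to 477 (median 341) and from 807 to 923 (median 848), differed by 1.29 ± 0.10. It was the only called gene of 17 renal injury genes with agreeing spots, against 0.995% higher and 0.231% lower of all such genes. The median of the 17 was 0.23. Osteopontin (Spp1), clusterin (Clu) and Timp1 gave 0.43, 0.10 and 0.60, and kidney injury molecule 1 (Havcr1) was not well above background on either of its probes. Leukocyte markers were 0 of 19 called, against 3.11% higher and 1.29% lower of all genes. The median of the 19 was 0.01, and their summed signal was 62664 and 61714.

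Other strongly higher genes belonged to no single list. Rarres2, the precursor of the chemoattractant chemerin, read 325 and 330 in its iron-sufficient spots and 3335 and 4052 in its iron-free spots (3.49 ± 0.22), as large a fold as Ahsp. The lipoxygenase Alox15, itself an iron enzyme, read 22.3, not well above background, and 1163, at least 15.1-fold. Dpep1, the brush border dipeptidase of the proximal tubule, read 765 and 2478 (1.70 ± 0.18). Apelin (Apln), a vasoactive peptide read by 10 and 9 spots, had medians of 144 and 463 with no overlap (1.60 ± 0.19). Ifi27l2b, of an interferon-induced family, read 2517 and 7104, which is 2.82-fold higher, and differed by 1.11 on its second probe. Srpx2, a secreted sushi-repeat protein, read 120 and 344 (1.52 ± 0.57) and was at 0.98 with normexp.

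**Figure D4:**
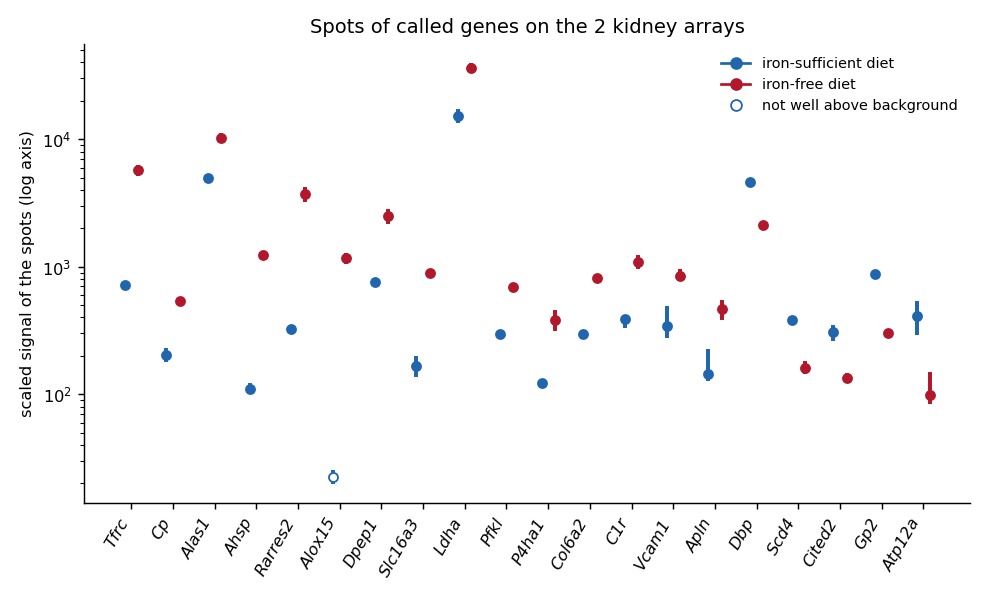
Scaled signal (y axis, log scale) of the repeated spots of 20 called genes on the iron-sufficient (blue) and iron-free (red) kidney arrays. Points are the median of the spots, lines their lowest to highest value, and the open point (Alox15) is not well above background. The spots of the 2 arrays do not overlap in any of the genes, which the rules for agreement and calling fix for probes with 2 spots. The last 5 genes, from Dbp to Atp12a, are lower on the iron-free diet.

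The 13 lower genes were mostly dim. Atp12a, the nongastric proton-potassium ATPase of the collecting duct, had iron-sufficient spots from 302 to 519 (median 412) and iron-free spots from 87.4 to 143 (median 99.0), a difference of -1.91 ± 0.31. Gp2, a glycoprotein related to uromodulin, read 877 and 300 (-1.55 ± 0.24). Both were lower by at least 2-fold under every alternative that gave a value. The desaturase Scd4 read 383 and 161 (-1.25 ± 0.41), and -0.96 with normexp. Cited2, a coregulator that competes with HIF for its coactivators, read 305 and 134 (-1.19 ± 0.41), and -0.85 with normexp. The clock output factor Dbp was the brightest of the lower genes, at 4619 and 2141 (-1.11 ± 0.25), and its other 2 probes gave -1.22 and -1.12. It was at -0.91 with scaling to the median. Ddx1, Asgr1, Prima1, Cryga, Otud4, Fitm1 and Ephx2 lay between -1.15 and -1.03, and each lost its call under median scaling.

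Fatty acid oxidation genes lay low as a group, with most members within 2-fold. Of the 33 with agreeing spots 3 were above 0, and the median was -0.29 beside -0.06 over all such genes. The list median kept its sign under the alternatives, from -0.34 to -0.09. Cpt1a, which admits long fatty acids to mitochondria, read 1234 and 748 (-0.72 ± 0.08), and Cyp4a1 read 2963 and 1895 (-0.64 ± 0.25). The dehydrogenases Acadm and Acads were at -0.09 and -0.08. Cytochromes P450 and conjugating enzymes had a median of -0.32 over 19 genes with agreeing spots, of which 3 were above 0. None was called higher and 1, the epoxide hydrolase Ephx2, was lower, against 0.995% and 0.231% of all such genes. In gluconeogenesis Pck1 and G6pc1, its controlling enzymes, read 12777 and 9531 (-0.42 ± 0.20) and 24482 and 18116 (-0.43 ± 0.20), and the glycogen-targeting subunit Ppp1r3c was higher by at least 2.97-fold.

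No nephron segment marker was called: none of 31 proximal tubule, 29 loop of Henle, distal tubule and collecting duct, or 10 podocyte markers. Over all genes 3.11% were higher and 1.29% lower, so few calls would fall in lists of this size. The podocyte marker Tcf21, at 35.4, not well above background, and 94.0, was a bound, which does not place it within 2-fold. The list medians were -0.13, -0.15 and -0.03. Each of these medians changed sign under some alternatives, reaching 0.08, 0.05 and 0.18. Aqp2, the vasopressin-regulated water channel, read 38819 and 55797 (0.52 ± 0.20). Cyp27b1, which activates vitamin D in the proximal tubule, read 229 and 134 (-0.77 ± 0.45). Of 5 detected urothelial markers 1 was lower, against 1.29% of all genes: Upk3a, at 432 and 191 (-1.18 ± 0.41) without agreeing spots. The median of the 5 was -0.61, beside -0.07 over the 2 with agreeing spots. Of the 4 detected hepatocyte markers 1, prothrombin (F2), was called higher, against 3.11% of all genes, at 1436 and 3226 (1.17 ± 0.18).

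Lists for iron-sulfur clusters, the respiratory chain and iron oxygenases held few called genes. None of 32 detected genes of iron-sulfur cluster assembly and its clients was called, with a median of -0.02. Of 59 respiratory chain and ATP synthase genes 1, Ndufb6, was called, as a bound. Over all genes 3.11% were higher and 1.29% lower. One of the 2 iron-sufficient spots of Ndufb6 read 21.9 in a noisy block and the other 15226, while the iron-free spots read 14510 and 14574. Without the noisy block its difference was -0.04 in place of 4.65. Pfkp, Atrnl1 and Robo4 were bounds of the same kind: 3.99, 3.00 and 1.36 fell to 0.89, 0.33 and 0.13 without noisy blocks. Among 30 detected iron oxygenases 3 were higher and 1 lower, against 3.11% and 1.29% of all genes. Of the 21 with agreeing spots 2 were higher and none lower, against 0.995% and 0.231% of all such genes. The higher ones were P4ha1, Plod1, not called with normexp, and the histone demethylase Kdm3a, without agreeing spots. The lower one was Hif1an, the asparagine hydroxylase of HIF, as a bound without agreeing spots. DNA replication and mitosis genes were 0 of 19 called, against 3.11% higher and 1.29% lower of all genes, with a median of 0.03.

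Agreeing probes of the same gene mostly gave close differences, as most genes differed little, but few genes were called on every probe. Of 261 genes with 2 or more agreeing probes, 238 had probes within 0.5 of each other, and the median range was 0.17. Of the 1137 genes with several detected probes, 6 had all probes higher (Ahsp, C7, Ifi27l2b, Pfkl, Cp and Gbp7) and 1 had all lower (Dbp), but only Ahsp, Ifi27l2b and Pfkl had agreeing spots on every probe, and Gbp7 on none. In 91 some probes were called and others were not, and in 1 the probes were called in opposite directions.

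The kidney differences were set beside those of liver and FAO cells on the same slide. The iron-sufficient liver array had 70 noisy blocks of 264 and the DFO array 13, whose part in these comparisons was not tested. Across the 3492 genes measured with agreeing spots in both tissues, Pearson r was 0.254 and Spearman rho 0.220; these are genes read by shared probes, not independent replicates. Of 33 genes higher in kidney with a value in liver, 6 were higher and 1 lower there, while 104 of all 3655 genes with agreeing spots in both tissues were higher in liver and 50 lower. Over all liver genes with agreeing spots 4.25% were higher and 1.63% lower. The 6 higher in both were, by liver difference, Tfrc at 3.71, Slc16a3 at least 2.86, Abcc9 at 1.99, Hbb at 1.71, Bcl3 at 1.54 and Pfkl at 1.28. Of 4 genes lower in kidney with a value in liver, 1 was lower there, Scd4 at -3.17, and none was higher. Rarres2 was at -0.21 in liver, Col1a2 at -0.23, Vcam1 at -0.24, Cp at 0.01 and Alas1 at -0.80. None of these tissue differences was tested. In FAO cells 11 of 24 genes higher in kidney were higher with DFO and none was lower, while 93 of all 4219 genes with agreeing spots in both were higher and 76 lower. Over all FAO genes with agreeing spots 3.18% were higher and 1.96% lower. They included P4ha1 at 2.35 (a bound), Cp at 1.70, Apln at 1.70, Pfkl at 1.29, Alas1 at 1.27 and Ldha at 1.12.

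**Figure D5:**
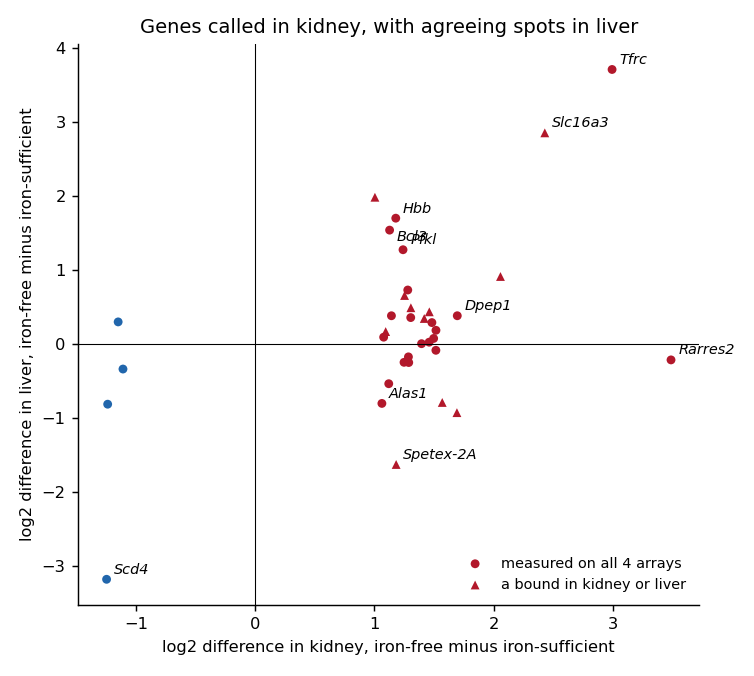
Log2 difference, iron-free minus iron-sufficient, in kidney (x axis) and liver (y axis) for the 37 genes called in kidney that had agreeing spots in liver. Circles were measured on all 4 arrays, triangles are bounds in at least 1 tissue, and red and blue mark genes higher and lower in kidney. Tfrc and Slc16a3 stand high on both axes, Rarres2 is high in kidney and near 0 in liver, and most other genes lie near 0 in liver.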

How the data were processed

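Agilent arrays of 6 pooled rat RNA samples were used; groups come from the sample titles. Per the file headers, the authors extracted spots with Feature Extraction 10.7.3.1 (design 028279, header build rn4), and the deposited intensity is background-subtracted and linear. The authors' series table holds, per the file headers and a comparison with the spots, an intensity and a log2 value scaled to each array's 75th percentile, with columns matched by that comparison, and was used for gene IDs and as an alternative. Symbols came from RefSeq GRCr8 (8874 of 9122 genes matched by ID), and no array coordinates are given.

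Outlier spots (912 and 879 on the kidney arrays) were dropped, log2 spots averaged, and the 75th percentile over the 9091 probes detected on all 6 arrays subtracted per array. A probe was detected when all its spots were. The probe with agreeing spots and the highest mean stands for a gene. SEs pool spot SDs in 20 signal bins. Each diet has 1 array, so there are no p-values, and the number of arrays limits the precision. The steps were tested on simulated data (Python 3.11.15, pandas 2.3.3, limma 3.58.1).

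The comparison, the 37 gene lists and the naming rule were chosen with earlier results of these data known. The rule took the 12 largest measured increases and decreases, the 5 largest bounds each way, 18 iron and injury genes, up to 5 called and 3 bright uncalled genes per list, genes with all probes called, genes with differing probes and genes called in liver too; any other gene named was picked with its values known. The definition of noisy blocks (16 by 16 spots, at least 8 repeated spots of bright probes, median departure over 0.3 log2), the condition on the dim array, and keeping each gene's probe across alternatives were also set after values were seen. Normexp used the median spot signal in place of the mean. Alternatives were scaling, background correction, noisy blocks, detection, agreement, probe, source, outliers and size threshold. Some genes that the rule named are not reported here.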

Additional observations from a re-analysis of the deposited data

Results flagged for a closer look

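Spetex-2A went opposite ways in kidney and liver. In kidney it read 48.4, not well above background, on the iron-sufficient diet and 174 on the iron-free diet, a bound of 1.18 on the log2 scale. In liver it was bright on the iron-sufficient diet alone, a bound of -1.62. Each tissue is 1 array per diet, and the difference between tissues was not tested. With normexp the kidney bound was 0.77, so the gene was no longer called.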

How the results depend on the processing

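Against 284 higher and 118 lower genes, normexp gave 187 and 74 (185 and 78 with the probe of each gene chosen anew), detection on both arrays 115 and 46, no detection filter 851 and 730, agreeing spots alone 56 and 13, and thresholds of 1.5-fold and 3-fold 654 and 454 and 114 and 47. Judging agreement on the bright array alone gave 93 and 15. The median scaling gave 408 and 84, and leaving out noisy blocks 244 and 112. The definition of a noisy block was the third tried; the 2 earlier ones gave 251 and 97, and 260 and 112. Of the 56 higher and 13 lower genes with agreeing spots, 33 and 5 remained called with normexp and 56 and 4 with median scaling. The 1 named called gene whose difference changed sign was Ndufb6, at -0.038 without noisy blocks. The other scalings, the brightest probe, the authors' log2 column and outlier spots kept moved the counts to between 283 and 292 higher and between 116 and 118 lower. No paired analysis was possible because each group is 1 array and no result comes from a test. The normexp alternative ran on the median in place of the mean spot signal. Signal over background limits the dim genes, where most bounds lie.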
